A study of Rattus norvegicus with 23 samples.

Results

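Rat median nerves repaired with a muscle-in-vein (MIV) graft and collected after 3 days were compared with healthy epigastric vein, the kind of tissue that forms the wall of such a graft. The 6 libraries, 3 labelled MIV day 3 and 3 labelled healthy vein, were taken by their titles from the 23 libraries of the series, and every gene row of the count table was considered. The MIV day 3 group came from wild-type adult female rats in which a gap of 8 mm was made in the median nerve and bridged with a 10 mm graft. Its tissue label is median nerve, and no label says how much of the vein wall was kept in the sample. The healthy vein group came from untreated wild-type animals, labelled day 0. MIV nerves at day 7, nerves of another repair series labelled EV at days 3 and 7 (n = 3 in each of these groups), and untreated healthy median nerve (n = 5) and adductor muscle (n = 3) are used below only to place the differences. The treatment label of EV names repair after a cut and does not name MIV, the series design states the 8 mm gap for the cut nerves in general, and all groups are labelled wild type. The strain and the age in weeks are not given in the labels, nor is it said whether each library came from a separate animal, so the p-values reflect only how these samples varied, which may be technical variation.

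A vein wall consists of an endothelium facing the blood, a media of contractile smooth muscle cells and an outer adventitia of fibroblasts and matrix, often with fat around it. In a muscle-in-vein graft the vein serves as a tube, and the muscle fibres inside keep it open and offer a basal lamina along which cells and axons can grow. After a nerve is cut, Schwann cells beyond the cut leave their myelinating state, and macrophages and other blood cells enter the tissue in the first days.

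MIV day 3 and healthy vein differ in tissue, injury, graft and day at the same time, so these contributions cannot be told apart. In such bulk samples, fewer cells of a type and less RNA per cell cannot be told apart either. Of the 32545 Ensembl gene identifiers in the table, 0 paired with a symbol in the reference gene table used here, so the defining markers of vein, muscle, nerve and blood cells could not be looked up, no gene name or sequence is printed, and genes are described by the healthy tissue that carries them. Totals of the 6 libraries ranged from 12650952 to 17267954 counts. Levels are given as CPM, counts scaled to a fixed library size, with library sizes adjusted by the trimmed mean of M-values (TMM), and folds compare libraries for the same gene. Transcript lengths could not be assigned, so classes of genes by CPM order them by reads, which also depend on length. Replicates correlated across genes at 0.961 to 0.981 within MIV day 3 and at 0.970 to 0.980 within healthy vein (log2 CPM, 3 pairs each), whereas the 9 pairs of 1 MIV day 3 and 1 vein library correlated at 0.771 to 0.810. The median SD of a gene was 0.27 in MIV day 3 and 0.20 in healthy vein on the log2 CPM scale (n = 3 each).

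The question of the comparison is how far the transcripts of the repaired nerve depart from those of the graft wall. Most of the tested genes differed. Of 15954 identifiers with enough counts, 4484 were higher and 4122 lower in MIV day 3 (edgeR quasi-likelihood test, Benjamini-Hochberg adjusted p under 0.05), which is 28.1% and 25.8% of those tested and 53.9% together. Of these, 4353 of the higher genes (27.3% of those tested) and 4017 of the lower genes (25.2%) also had no overlap between the 3 MIV day 3 and the 3 vein libraries. The genes that rose took 48.9%, 47.0% and 49.1% of all counts in the MIV day 3 libraries, against 18.4%, 18.7% and 19.5% in the vein libraries. The genes that fell took 14.6%, 14.8% and 15.01% in MIV day 3, against 46.5%, 47.2% and 45.6% in vein. The libraries of each group lay close together in both shares. These shares describe the genes chosen by the test and are no further evidence for it.

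**Figure D1:**
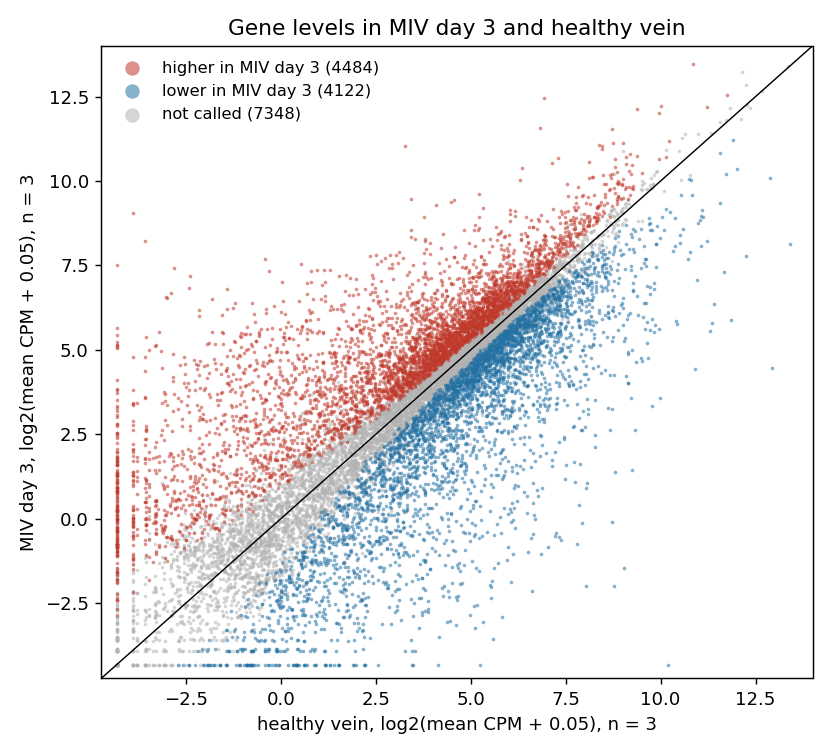
Mean level of each of the 15954 tested genes in MIV day 3 (vertical) and healthy vein (horizontal), as log2(mean CPM + 0.05), with n = 3 libraries each. The 4484 genes called higher lie above the line of equal level, the 4122 called lower lie below it, and both extend to genes with no count in the other group, which form the left and lower edges.

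The called differences ranged from under 1 to over 5 log2 units. The median log2 fold change of the rises was 1.35 (quartiles 0.77 and 2.84) and that of the falls was -1.49 (quartiles -2.78 and -0.81), and the median standard error was 0.27 among rises and 0.29 among falls. A gene had to exceed its error to be called, so these values describe the called genes only. The median over all tested genes was 0.04. TMM scaling takes most genes as unchanged, so this median and the near balance of rises and falls depend partly on the scaling. Of the rises, 1675 were at most 1 log2 unit, 1187 lay between 1 and 2, 565 between 2 and 3, 586 between 3 and 5, and 471 above 5. Of the falls, 1387 were at most 1 log2 unit, 1160 lay between 1 and 2, 648 between 2 and 3, 606 between 3 and 5, and 321 above 5. The largest size class therefore held 10.5% of the rises and 7.79% of the falls.

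**Figure D2:**
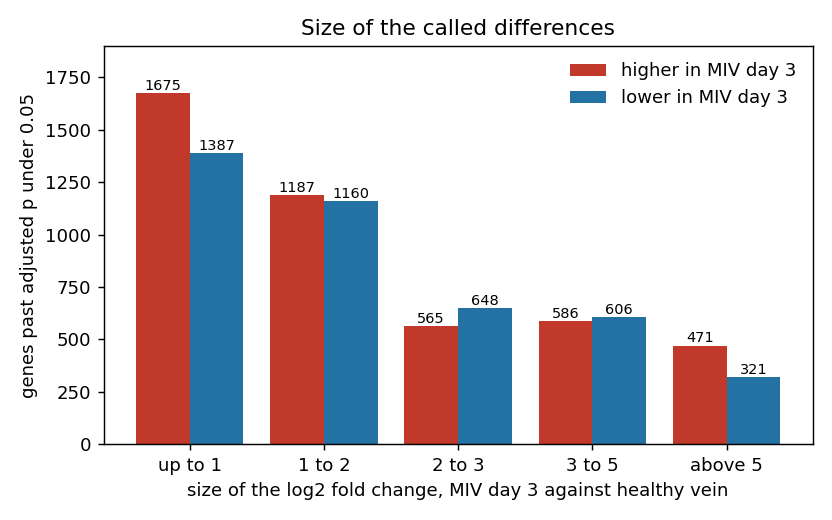
Number of genes past an adjusted p under 0.05 by the size of their log2 fold change, MIV day 3 over healthy vein, for genes that were higher and lower in MIV day 3. Bars start at 0, and 471 genes rose and 321 fell by more than 5 log2 units.

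The differences were spread over many genes of high level as well as low. The 10 rises with the highest level in MIV day 3 together took 6.35% of its counts on average, against 1.28% in vein, and the 100 highest took 17.4%, against 5.44% in vein. The 10 falls with the highest level in vein took 0.858% of the counts in MIV day 3 and 6.11% in vein, and the 100 highest took 3.57% in MIV day 3 and 17.9% in vein. Calls were made at every level. With the genes split by mean level into 4 classes of equal size, the lowest class, up to 3.19 CPM, held 724 rises and 739 falls (36.7% called), and the highest, from 46.5 CPM upwards, held 1332 rises and 1263 falls (65.1% called). Called genes of the lowest class had a median change of 3.10 log2 units in size and those of the highest class 1.004. The median standard error of all genes was 0.78 in the lowest class and 0.18 in the highest.

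The identifiers with the largest fitted log2 fold changes were transcripts that 1 of the 2 tissues hardly carried. Where a group has 0 or few counts the fitted value depends on the prior count, so this order is not an order of measured folds. ENSRNOG00000030743 had 7790, 1391 and 1539 counts in the MIV day 3 libraries (391.9, 79.5 and 73.9 CPM), against 0 counts in each of the 3 vein libraries. It was at least 3209-fold higher in MIV day 3, set against a floor of 3 counts over the vein group, which covers counting error only (edgeR adjusted p = 1.3e-05). Replicate 1 of MIV day 3 stood well above the other two. Without it the mean of MIV day 3 was 76.7 CPM, the bound was 1354-fold and the adjusted p was 3.24e-05 (edgeR). The same identifier stood at 39.6 CPM ± 8.51 in healthy muscle (SD, n = 3), below each MIV day 3 library, and had 2 counts in all over the 5 nerve libraries. In EV at day 3 it had 57 counts in replicate 2 and 0 in the other two.

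ENSRNOG00000008536 had 21642, 5606 and 3528 counts in MIV day 3 (1089, 321 and 169 CPM), against 1, 0 and 0 counts in vein. The ratio of the summed counts per scaled library size was 28001, with a 95% exact interval of 5025 to 1106010 that covers counting error only (edgeR adjusted p = 4.89e-06). Replicate 1 was again the highest, and without it the mean of MIV day 3 was 245 CPM, against 526 CPM with it, and the adjusted p was 9.83e-06 (edgeR). Healthy muscle carried 92.4, 34.3 and 30.0 CPM, below every MIV day 3 library, and the 5 nerve libraries had 0 counts. EV at day 3 had 1, 1 and 0 counts. Both identifiers were thus higher in each MIV day 3 library than in any healthy muscle library, and at or near 0 in most libraries of vein, nerve and EV at day 3. At day 7, MIV carried 92.7, 23.02 and 263 CPM of ENSRNOG00000030743, of which replicate 2 was below the healthy muscle libraries. It carried 839, 139 and 3582 CPM of ENSRNOG00000008536, above them in every library.

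The largest fitted falls were seen in transcripts of all 3 healthy tissues. ENSRNOG00000028108 had 0 counts in each of the 3 MIV day 3 libraries, against 22103, 18556 and 21441 counts in vein (1118, 1289 and 1142 CPM). It was at least 22945-fold lower in MIV day 3, with a floor of 3 counts over that group (edgeR adjusted p = 2.89e-07). Healthy nerve carried it at 141 CPM ± 41.8 (SD, n = 5) and healthy muscle at 55.1 CPM ± 11.2 (SD, n = 3), so vein was the tissue with the highest level. EV at day 3 had 23, 0 and 1 counts, and MIV at day 7 had 498, 25 and 80.

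ENSRNOG00000014758 had 0 counts in each MIV day 3 library, against 701, 557 and 733 counts in vein (35.5, 38.7 and 39.0 CPM). It was at least 732-fold lower in MIV day 3 with the same floor (edgeR adjusted p = 3.51e-06). The nerve libraries ran from 27.9 to 44.3 CPM, around the vein values, and healthy muscle stood at 10.2 CPM ± 8.50 (SD, n = 3). EV at day 3 also had 0 counts in each of its 3 libraries. Neither transcript was detected in MIV day 3 at this depth, and all 3 healthy tissues carried both.

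**Figure D3:**
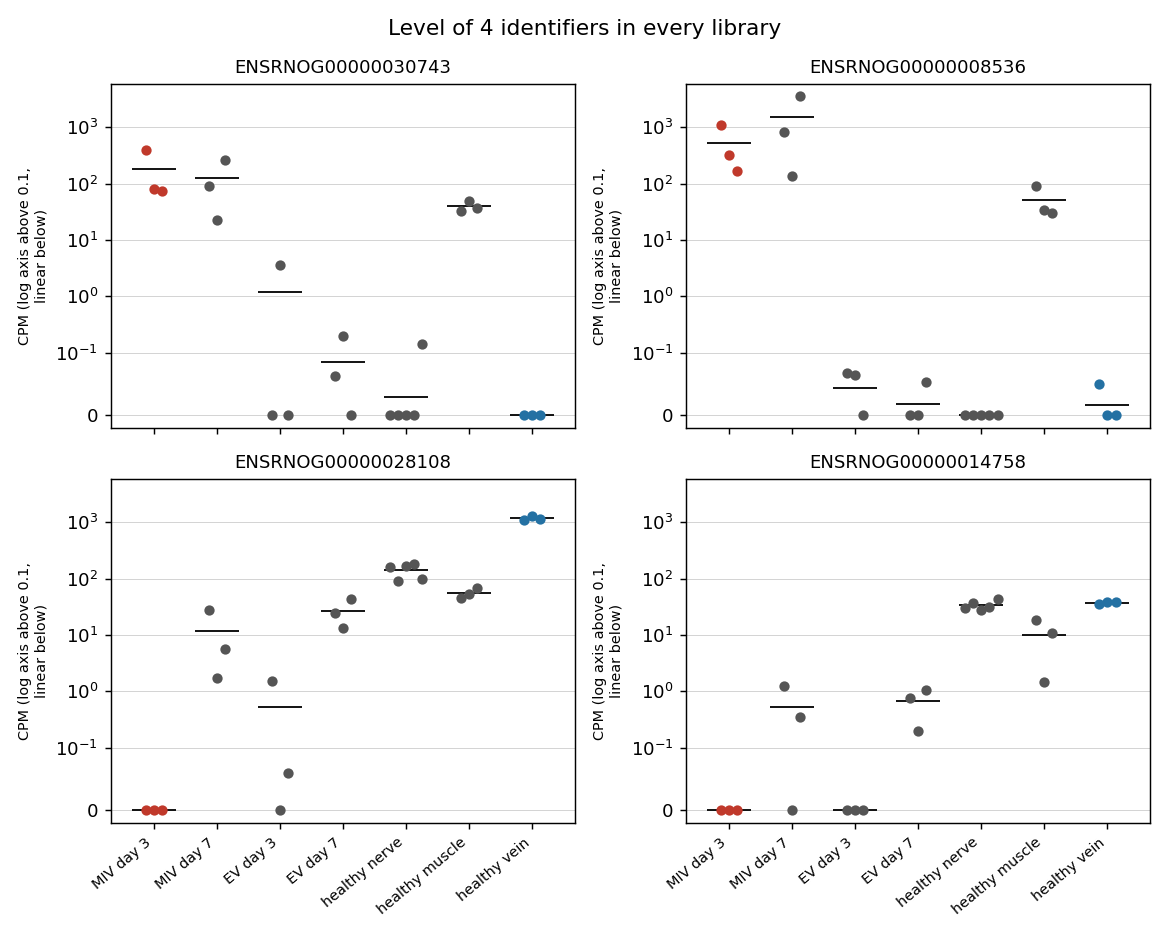
CPM of the 2 identifiers with the largest fitted rise (upper row) and the 2 with the largest fitted fall (lower row) over vein, in every library of the 7 groups. Points are libraries and lines are group means, and the vertical axis is logarithmic above 0.1 CPM and linear below. ENSRNOG00000030743 and ENSRNOG00000008536 are above 20 CPM in the MIV and healthy muscle libraries, whereas ENSRNOG00000028108 and ENSRNOG00000014758 are at 0 in the 3 MIV day 3 libraries.

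MIV day 3 was next compared with the other healthy tissues of the repair in the same fit, to see whether a difference from vein was also a difference from nerve and muscle. Of the tested genes, 30.9% were higher and 30.6% lower in MIV day 3 than in nerve, and 33.5% were higher and 33% lower than in muscle. Since each of these contrasts uses the same MIV day 3 libraries, their errors are shared. Of the 4484 rises over vein, 2070 (46.2%) were also higher than both healthy nerve and healthy muscle, with a median log2 fold change over vein of 2.04 (quartiles 1.11 and 3.71). Among all tested genes, 17.7% were higher than both nerve and muscle. A further 658 rises (14.7%) stood above nerve and below muscle, with a median of 0.92 over vein. Another 151 (3.37%) stood above muscle and below nerve, with a median of 1.35. The shares of all tested genes with these pairs of calls were not counted, so neither count is set against a background. The rises that exceeded all 3 healthy tissues were thus the most frequent kind. In all, 1027 rises were lower than muscle and 288 were lower than nerve, and 75 were lower than both, so vein was the lowest of the 3 healthy tissues for those genes.

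Of the 4122 falls, 1494 (36.2%) were also lower than both nerve and muscle, with a median log2 fold change over vein of -1.41, while 14% of all tested genes were lower than both. A further 968 falls were lower than nerve with no call against muscle, with a median of -2.19. The share of all tested genes with that pair of calls was not counted. Falls in which MIV day 3 stayed higher than another healthy tissue were fewer. They numbered 711 for muscle (17.2% of the falls), 159 for nerve (3.86%) and 76 for both (1.84%). With scaling factors that leave out muscle-enriched genes, the rises lower than muscle numbered 1395 and those above both tissues 1899.

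**Figure D4:**
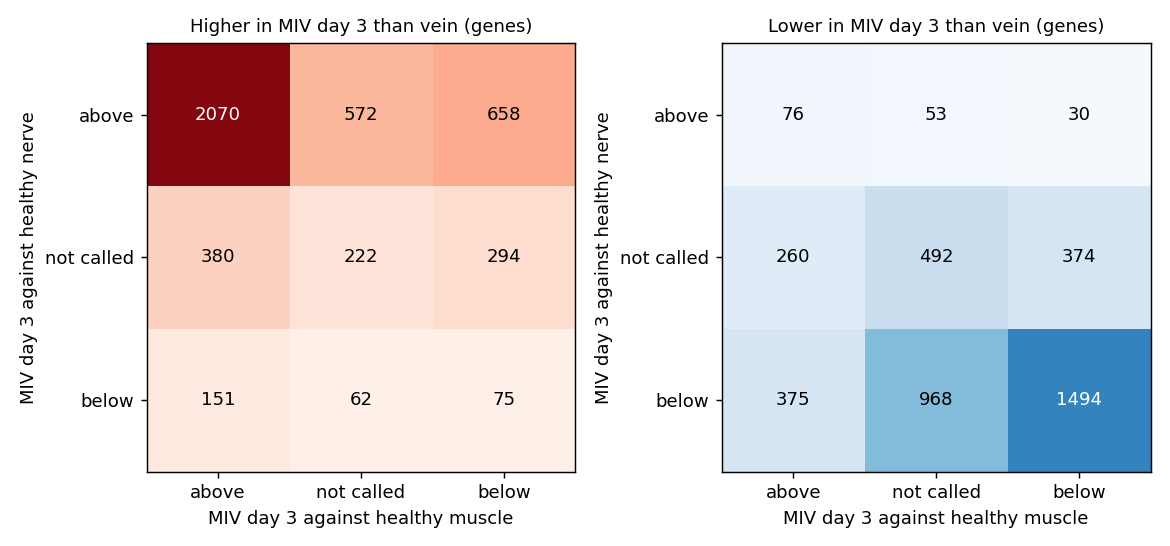
Genes higher (left) and lower (right) in MIV day 3 than in healthy vein, split by the call of MIV day 3 against healthy nerve (rows) and healthy muscle (columns). Each cell gives the number of genes, and the fullest cells are the 2070 rises above both tissues and the 1494 falls below both.

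The sets were also followed through every library, as levels relative to the mean of vein. The 2070 genes above all 3 healthy tissues had a median log2 CPM of 1.94, 1.95 and 1.97 above the vein mean in the MIV day 3 libraries. The EV day 3 libraries were not compared in the choice, beyond sharing its fit, but are set against the same vein mean. In them the median was 1.61, 1.88 and 1.98 above vein. At day 7 it was 1.04, 1.47 and 0.79 in MIV and 1.02, 1.12 and 0.97 in EV, below each library of the same series at day 3, which the choice by a high level in MIV day 3 favours for MIV. These genes took 28.2% ± 0.859 of the counts in MIV day 3 and 8.48% ± 0.374 in vein (SD, n = 3 each). For these genes the median log2 fold change of MIV over EV at day 3 was -0.01, beside -0.02 over all tested genes.

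The 658 rises between nerve and muscle were chosen as lower than muscle, so muscle is their highest healthy tissue by that choice. Healthy muscle stood 2.24 to 2.31 log2 units above vein, and the MIV day 3 libraries 0.99, 0.87 and 0.88 above it. They took 7.04%, 5.81% and 5.98% of the counts in MIV day 3, against 2.85%, 2.90% and 2.83% in vein, with replicate 1 of MIV day 3 the highest. EV day 3 libraries, which hold no label naming MIV, had 4.73% to 5.94% of their counts in these genes. The median MIV minus EV difference at day 3 was 0.06 on the log2 scale, with quartiles of -0.05 and 0.42. For the 151 rises between muscle and nerve, the choice likewise makes nerve the highest healthy tissue. Healthy nerve stood 3.08 to 3.34 log2 units above vein for these 151 genes, and the MIV day 3 libraries 1.35, 1.26 and 1.11 above it. They took 0.916% ± 0.0282 of the counts in MIV day 3 and 0.446% ± 0.0317 in vein (SD, n = 3 each), against 3.39% ± 0.0454 in nerve (SD, n = 5).

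The 1494 genes below all 3 healthy tissues had a median of -1.34, -1.39 and -1.36 log2 units relative to vein in MIV day 3. EV day 3 was not compared in the choice, beyond sharing its fit, but is set against the same vein mean. Its median ran from -1.45 to -1.15. At day 7 the median was -1.05 to -0.59 in MIV and -0.71 to -0.58 in EV. Both were nearer to vein than each library at day 3, which the choice by a low level in MIV day 3 favours for MIV. These genes took 4.74% ± 0.126 of the counts in MIV day 3 and 17.2% ± 0.184 in vein (SD, n = 3 each), and 20.3% ± 0.681 in nerve (SD, n = 5).

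**Figure D5:**
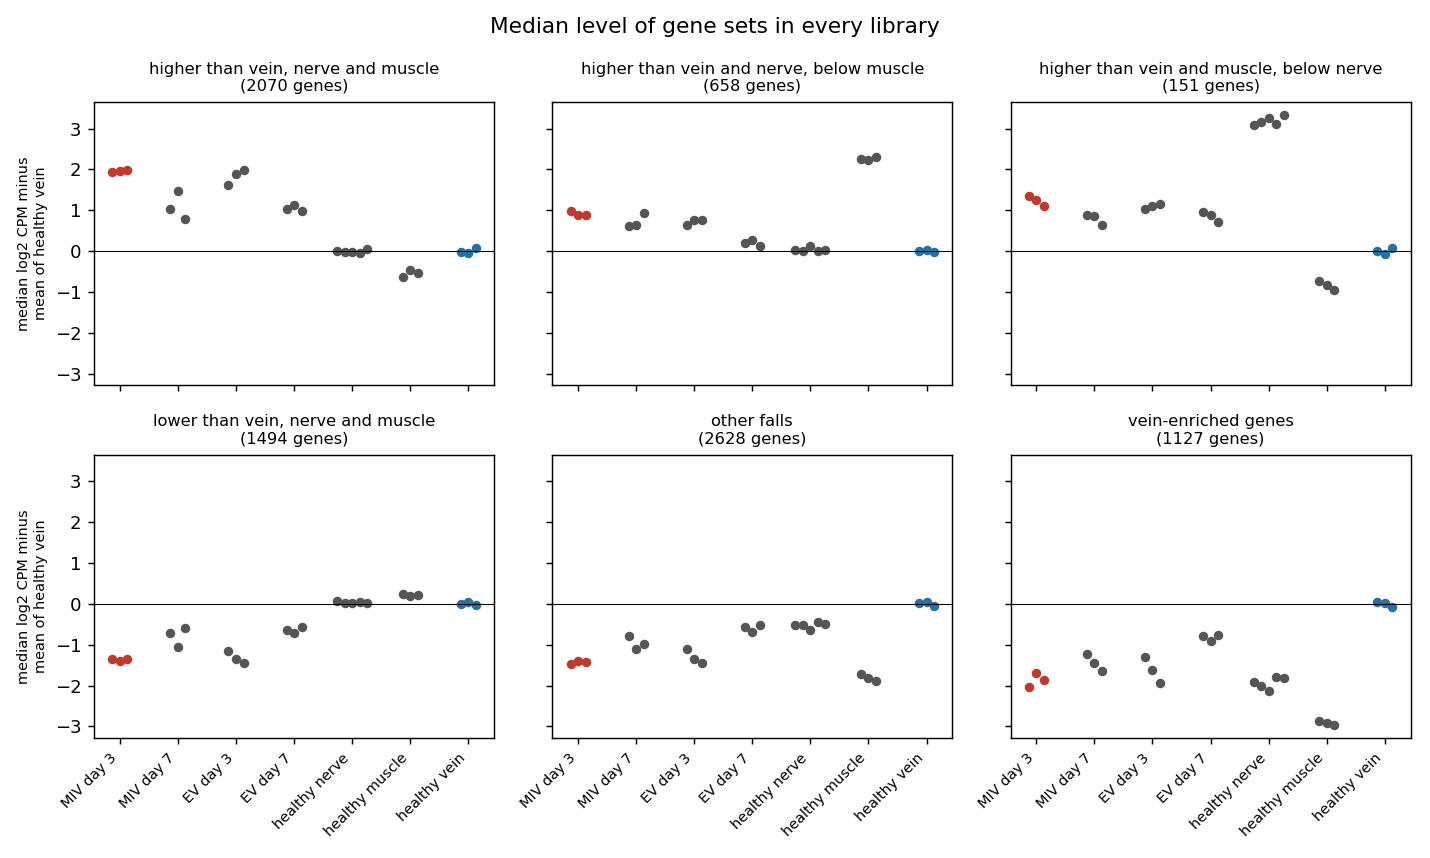
Median log2 CPM of 6 gene sets minus their mean in healthy vein, in every library of the 7 groups (1 point a library). The line marks the vein mean. The set above all 3 healthy tissues is near 2 in MIV day 3 and lower in both day 7 groups, and the vein-enriched genes lie between -2.03 and -1.69 in MIV day 3.

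Genes were then grouped by healthy muscle against healthy nerve alone (log2 fold change beyond 1, adjusted p under 0.05). The grouping compares neither MIV day 3 nor vein libraries, although all 23 libraries shared the filter, scaling and spread estimate of the fit. Of 3460 genes higher in muscle than nerve, 1219 rose and 629 fell in MIV day 3 relative to vein, which is 35.2% and 18.2%, with a median log2 fold change of 0.29. Of 4578 genes higher in nerve than muscle, 1120 rose and 1600 fell, which is 24.5% and 34.9%, with a median of -0.27. Of the remaining 7916 genes, 27.1% rose and 23.9% fell, close to the 28.1% and 25.8% of all genes. Per library, the median of the muscle-over-nerve genes was 0.36 in replicate 1 and 0.19 and 0.18 in replicates 2 and 3. The nerve-over-muscle genes had medians of -0.24, -0.22 and -0.23, with no such gap between replicates.

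As shares of all counts, the muscle-over-nerve genes took 24.6%, 21.1% and 21.3% in MIV day 3, against 20.7%, 21.6% and 20.3% in vein. These ranges overlapped. The nerve-over-muscle genes took 30.3%, 31.6% and 32.3% in MIV day 3, against 34.1%, 34.7% and 35.4% in vein, without overlap. Healthy muscle had 82.5% ± 0.395 (SD, n = 3) of its counts in the first group and healthy nerve 48.2% ± 1.45 (SD, n = 5) in the second. Healthy nerve had 17.7% ± 1.18 (SD, n = 5) in the first group and healthy muscle 3.02% ± 0.293 (SD, n = 3) in the second. MIV day 3 was therefore within a few percentage points of vein and far from muscle in both shares. It was far from nerve in the nerve-over-muscle share only. Healthy muscle and healthy nerve chose these classes, which favours their place at the extremes, with groups outside the choice between them. EV day 3 had 21.4% ± 1.12 in the first group and 31.5% ± 0.215 in the second (SD, n = 3), near MIV day 3. The shares are therefore no measure of likeness to vein.

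Transcripts carried most by vein were mostly lower in MIV day 3. The 1127 vein-enriched genes were more than 1 log2 unit above both nerve and muscle with an adjusted p under 0.05, so the vein libraries themselves chose them, and a lower value elsewhere is favoured by that choice and is given without a test. Of them, 764 fell (67.8%), 268 were not called (23.8%) and 95 rose (8.43%) in MIV day 3, beside 25.8% that fell and 28.1% that rose over all tested genes, with a median log2 fold change of -1.91 (quartiles -3.48 and -0.57). In 540 the fall exceeded 2 log2 units and in 370 it exceeded 3. Their share of counts was 5.22%, 6.38% and 6.26% in MIV day 3, against 18.7%, 18.6% and 16.3% in vein. Healthy nerve had 3.71% ± 0.234 (SD, n = 5) and healthy muscle 0.799% ± 0.0225 (SD, n = 3).

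Among the 764 falls of vein-enriched genes, 71 stayed above both nerve and muscle in MIV day 3, 502 were above neither tissue, and 104 were below both. Of the 268 vein-enriched genes without a call, 198 were above both nerve and muscle. Among all tested genes, 17.7% were higher than both nerve and muscle and 14% were lower than both. These genes were chosen as above nerve and muscle in vein, which favours the 198. The choice of falls favours the 502, so these splits are descriptive. A part of the vein-enriched transcripts stood at the vein level in MIV day 3 or could not be separated from it. A larger part was called above neither of the other healthy tissues.

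Detection alone separated a small number of genes. Among all 32545 identifiers, tested or not, 87 had at least 10 counts in each MIV day 3 library and 0 in all 3 vein libraries. Their median was 50.0 counts a library. Of these, 25 had at least 10 counts in each healthy muscle library, 4 in each healthy nerve library and 59 in neither, and 8 had no count in any nerve or muscle library. In the opposite direction, 36 genes had at least 10 counts in each vein library and 0 in all 3 MIV day 3 libraries, with a median of 34.8 counts a library. Of these 36, 18 had at least 10 counts in each nerve library and 2 in each muscle library. In EV day 3, 26 of the 87 and 0 of the 36 had at least 10 counts in each library. The shares of all identifiers that reach 10 counts in each library of those groups were not counted, so these splits are descriptive.

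EV nerves at day 3 were set against the same vein libraries, so the 2 comparisons share their controls and their values are only placed side by side. EV day 3 had 4255 genes higher and 4092 lower than vein (edgeR, adjusted p under 0.05), which is 26.7% and 25.6% of those tested. In MIV day 3 the counts were 4484 and 4122. For genes higher in muscle than nerve, MIV day 3 had 1219 rises and 629 falls and EV day 3 had 1002 and 708, with medians of 0.29 and 0.11 over vein. For the vein-enriched genes, MIV day 3 had 95 rises and 764 falls and EV day 3 had 100 and 706, with medians of -1.91 and -1.61. Across genes, MIV day 3 libraries correlated with EV day 3 libraries at 0.916 to 0.973 (9 pairs), with healthy nerve at 0.729 to 0.757 (15 pairs) and with healthy muscle at 0.703 to 0.762 (9 pairs).

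The 7348 genes without a call were not all alike. For 3656 of them (49.8%) the 95% interval of the difference lay within 1 log2 unit in either direction, so larger changes lay outside the interval. For 3641 (49.6%) the interval reached beyond 1 log2 unit, so a difference of that size is not excluded for them. The other 51 had no count in either group.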

How the data were processed

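RNA-seq was measured in 23 rat libraries. TRIzol extraction, poly-T bead selection and a kit that does not mark strand were used, per the labels' protocols, so reads of a gene and an overlapping antisense partner are not separated. CASAVA and HISAT2 were used, per the submitters' processing notes. For the counting tool, the build and the annotation, the entry is: not given in the sources used here. Counts of genes with close copies are therefore uncertain. The authors deposited raw counts per Ensembl identifier, whole numbers with a different total in each library (12504035 to 17314324), and 0 columns were left unused.

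The tests were run with edgeR 4.0.16 under R 4.3.3. Genes were kept by filterByExpr (minimum count 10, minimum total 15), scaled by TMM and fitted over all 23 libraries with 1 coefficient for each of 7 groups (robust glmQLFit and glmQLFTest, biological coefficient of variation 31.4%), with Benjamini-Hochberg adjustment over all 15954 genes and a threshold of 0.05. Log2 CPM used a prior count of 2. Intervals are 95%, with the standard error taken from the log2 fold change and its F statistic.

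Ensembl identifiers stand in 0 of the 47357 rows of the RefSeq gene table used for names (assembly GRCr8). The 38 gene lists made by symbol therefore had 0 measured members. Named identifiers had an adjusted p under 0.05, at least 10 CPM on average in the higher group and no overlap between groups (3361 higher and 2973 lower passed). The rule allows 2 in each direction, by fitted log2 fold change. The comparison, the lists and the gene classes were chosen with earlier results of these data known. Alternatives included DESeq2 1.42.0, other scaling and filters, a replicate block and leaving out each library.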

Additional observations from a re-analysis of the deposited data

Results flagged for a closer look

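Values of the 5 healthy nerve libraries behind the report were checked for a single library far from the others, in 16 groups of values, of which chance flags about 1 in 20. In 4 of them a library stood apart. For ENSRNOG00000030743, nerve replicate 5 had 0.142 CPM and the other 4 libraries had 0. The genes higher in nerve than muscle took 50.7% of the counts in nerve replicate 5, against 46.97% to 47.9% in the others. The 658 rises above nerve and below muscle had a median of 0.13 log2 units over vein in nerve replicate 3, against 0 to 0.02 in the others. The 1605 rises in none of the sets described separately had a median of 0.64 in nerve replicate 3, against 0.51 to 0.54 in the others.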

How the results depend on the processing

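The counts of rises and falls changed by more than 1.5 times under 1 alternative alone, which asks for an absolute log2 fold change above 1 as well. It left 2809 rises and 2735 falls, and 1449 rises above nerve and muscle, 331 below muscle, 209 above nerve and below muscle and 139 below nerve. It also left 795 falls below nerve and muscle, 35 vein-enriched falls still above both, and 644 rises and 383 falls of muscle-over-nerve genes, with 2607 rises and 2689 falls in EV day 3. Over the other alternatives, leaving out libraries aside, rises ran from 4267 (the 2 groups alone) to 4737 (scaling without muscle-enriched genes) and falls from 3861 to 4381 (DESeq2, with 4667 rises and 49 genes without an adjusted p). Over all 13 alternatives the share of calls that were higher ran from 50.7% to 55.1%, and 0 genes called in both fits changed direction. Every alternative scales libraries as if most genes were unchanged, so this range does not test that assumption. Leaving out each of the 6 libraries gave 3934 to 4172 rises, 3665 to 3814 falls and 1887 to 1973 rises above nerve and muscle. All 4 named identifiers kept their direction and stayed past the threshold in all 13 alternatives (highest adjusted p = 0.00213). They were chosen from the same data by the largest fitted change without overlap. That choice favours such stability, which therefore says little about other genes.

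Same-numbered MIV day 3 and vein libraries did not deviate together (correlations across genes of -0.01, 0.01 and -0.02). Differently numbered ones ran from -0.06 to 0.06. The numbers thus gave no sign of pairing, which 3 libraries a group cannot exclude. With the number as a replicate block there were 4305 rises, 4049 falls and 1788 rises above nerve and muscle. The block covered the MIV day 3 and vein libraries only. It therefore set MIV day 3 against nerve and muscle at the level of its replicate 1. The 1788 is thus not a blocked version of that count. Depth limits the genes up to 3.19 CPM, of which 36.7% were called.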
